A study of Mus musculus with 12 samples.

Results

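The MYC and MAX network was followed through 8 genes, Myc, Max, Mxd1, Mxd4, Mxi1, Mnt, Mga and Mlx, taken by gene symbol from the 14323 symbols of the count table. All 8 were present, with 1 entry each. Naive CD8+ T cells had been sorted by surface markers from the spleens of 3 adult wild type mice (C57BL/6N background), and 100000 cells per well were cultured for 6 h. The wells were either unstimulated, coated with isotype antibody in place of anti-CD3, or coated with 2.5 µg/ml anti-CD3, an antibody that triggers the T cell receptor complex. Each of these arms also received either 2.5 µg/ml anti-LAIR-1 (clone 2C7), an agonistic antibody to the inhibitory collagen receptor LAIR-1, or its isotype control. The 4 resulting groups are called anti-CD3 isotype, unstimulated isotype, anti-CD3 anti-LAIR-1 and unstimulated anti-LAIR-1, and each holds 3 libraries, 1 from each of mice 1, 2 and 3. The design asks what T cell receptor triggering does to the transcriptome within 6 h, and how ligation of LAIR-1 alters that response or the resting cells.

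MYC is a basic helix-loop-helix leucine zipper transcription factor that binds DNA as a dimer with MAX, and the dimer activates genes of growth, ribosome production and metabolism. MXD1, MXD4, MXI1 and MNT bind MAX in place of MYC and bring SIN3 and histone deacetylase corepressors to the same CACGTG sequence, the E-box. MGA is a large MAX partner that also carries a T-box domain and sits in a repressive Polycomb complex, whereas MLX is a MAX-like protein that pairs with the glucose-sensing factors MLXIP and MLXIPL and also with some MXD proteins. In T cells MYC is known for its rapid induction through the antigen receptor and for driving the metabolic change that precedes division.

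RNA was read by an adapted CEL-seq protocol, which counts transcripts near their polyadenylated ends. Library totals ran from 1781218 to 7725545 counts, and the anti-CD3 groups were deeper (medians 4883760 and 6204054 counts) than the unstimulated groups (medians 2304214 and 3548881 counts). Levels below are normalized CPM, that is counts scaled to a common library total with TMM, and 3 counts corresponded to between 0.388 and 1.68 CPM. Mitochondrially encoded genes took 17.6% to 20.9% of the counts without anti-CD3 and 11.5% to 13.2% with it. Each comparison was also fitted without these genes and Rn45s, and any other part of this shift in the results was not tested. The 10 naive CD8+ T cell markers checked (such as Cd8a, Cd3e and Ccr7) were all present, with a summed level of 6086 to 6794 CPM in the unstimulated isotype libraries. Of 14 markers of other cell types, 10 were listed, and their summed level was between 4.66 and 16.7 CPM in any library. Within that sum the B cell gene Cd79b fell with anti-CD3 (log2 fold change -2.29 in the isotype arm, -1.90 in the other arm, where it passed the filter through the unstimulated libraries alone in both and so had to differ), the myeloid gene Csf1r had no count in 11 of the 12 libraries, and the part of such cells in the network's changes was not tested. These are bulk samples, in which fewer cells of a type and less RNA per cell cannot be told apart.

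The genes lie on 7 chromosomes of the mouse genome (mm10, GENCODE annotation): Myc at chr15:61985391-61990374, Max at chr12:76937269-76962201, Mxd1 at chr6:86647042-86669161, Mxd4 at chr5:34173883-34187720, Mxi1 at chr19:53310518-53375810, Mnt at chr11:74830920-74845725, Mga at chr2:119897228-119969581 and Mlx at chr11:101087277-101092207. Mlx overlaps Psmc3ip on the opposite strand, and since the sources used here do not say whether counting used strand, reads of the overlap cannot be assigned to either gene with certainty.

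Because the network's proteins act through the E-box, the promoters were searched for its letters, CACGTG, which read the same on both strands. RefSeq promoters (GRCm38.p6, 250 bases before to 50 bases after the transcription start) were given for 7 of the 8 genes (Max, Mxd1, Mxd4, Mxi1, Mnt, Mga and Mlx). CACGTG was present in 4 of these 7 genes, Max, Mxd4, Mnt and Mlx, beside 7.15% of all 32851 promoters and 8.09% of all 27025 genes. The first base of the match lay 3 bases before the start in Max, 219 before it in Mxd4, 123 before it in Mnt and 40 before it in Mlx. These letters were not found in the windows of Mxd1, Mxi1 and Mga. The promoters of Max, whose RNA rose with anti-CD3, and of Mxd4, whose RNA fell, are shown to place the shared letters in both, with the E-box in capitals and the sequence on the minus strand read 5′ to 3′ (Max at chr12:76962199-76962498 and Mxd4 at chr5:34187661-34187960).
Max promoter: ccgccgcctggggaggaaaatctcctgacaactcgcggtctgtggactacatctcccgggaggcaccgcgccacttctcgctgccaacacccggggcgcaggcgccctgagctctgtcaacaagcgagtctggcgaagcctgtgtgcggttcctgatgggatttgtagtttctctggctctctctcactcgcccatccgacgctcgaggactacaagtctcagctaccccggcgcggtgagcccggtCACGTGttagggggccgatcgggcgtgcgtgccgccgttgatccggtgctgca
Mxd4 promoter: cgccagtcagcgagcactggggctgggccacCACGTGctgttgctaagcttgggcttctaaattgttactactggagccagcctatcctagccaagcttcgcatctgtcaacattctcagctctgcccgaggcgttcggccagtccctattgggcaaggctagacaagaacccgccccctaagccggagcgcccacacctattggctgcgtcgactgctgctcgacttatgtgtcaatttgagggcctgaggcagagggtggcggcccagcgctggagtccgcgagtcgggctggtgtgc

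After 6 h of anti-CD3 with isotype, Myc RNA rose 15.3-fold, Max, Mga and Mlx rose by less, and the 3 MAX-binding repressors Mxd1, Mxd4 and Mxi1 fell. In edgeR (quasi-likelihood test, p-values adjusted by Benjamini-Hochberg across the 8690 genes tested), 4 of the 8 genes were higher and 3 were lower at an adjusted p under 0.05, and Mnt did not pass. The background was high, because 71.3% of all genes tested passed (35.3% higher and 36.1% lower), and the count of 7 of 8 has to be read against that share. With anti-LAIR-1 in both arms, 4 genes were higher and 4 were lower, beside 72.7% of 9000 genes (36.4% higher and 36.3% lower). The plot of levels by library shows the 8 genes side by side.

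**Figure D1:**
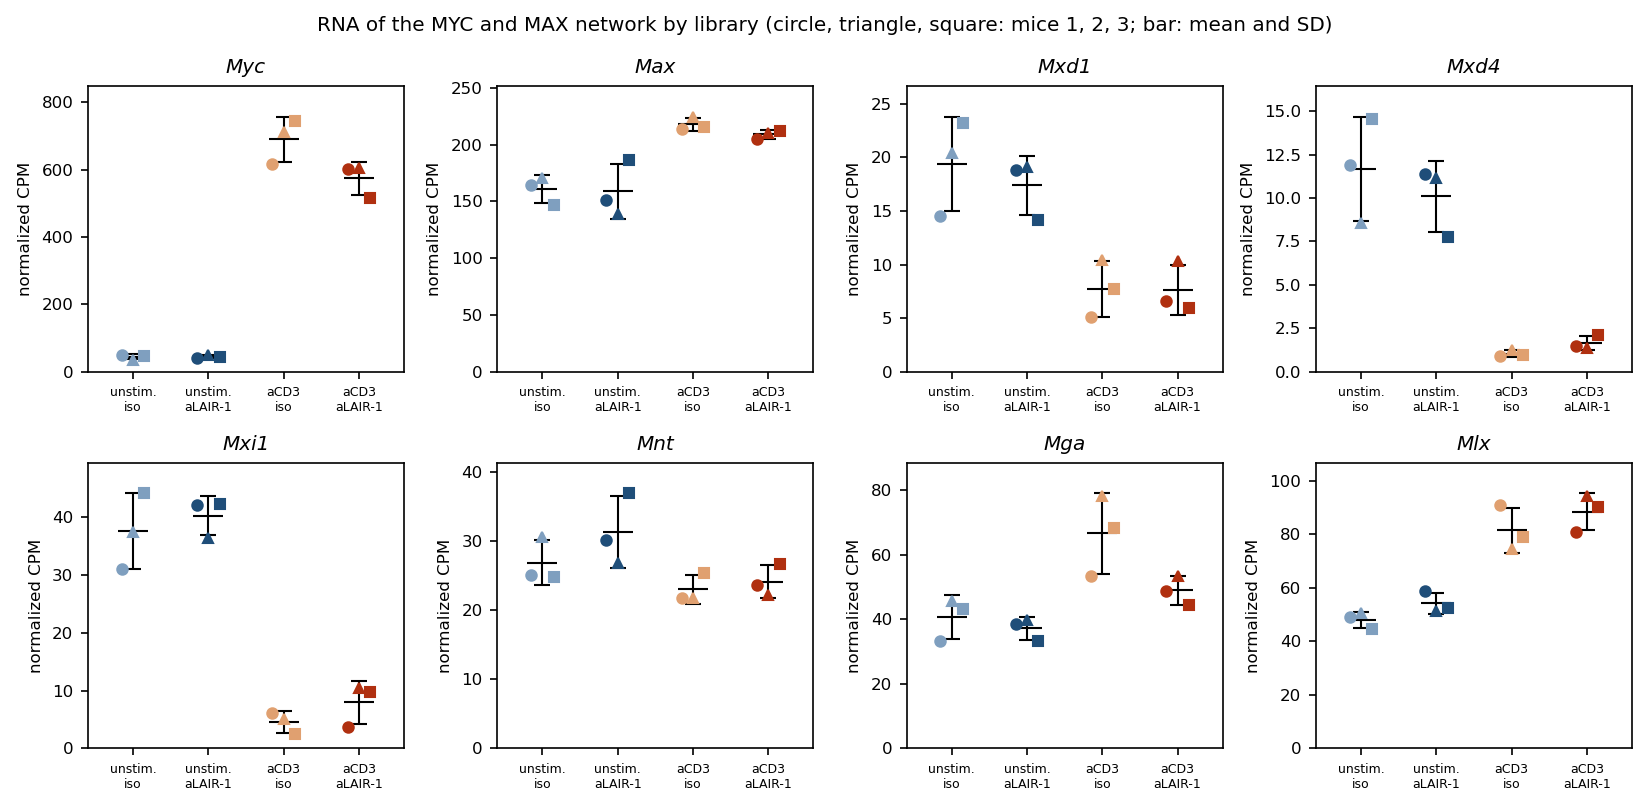
Normalized CPM (y axes, linear from 0) of the 8 network genes in the 4 groups (x axes); symbols are libraries of mice 1, 2 and 3, and bars are the mean and SD of 3 libraries. Myc lies between 35.5 and 49.4 CPM without anti-CD3 and between 516 and 744 CPM with it, and the levels of Mxd1, Mxd4 and Mxi1 in the libraries with anti-CD3 are all below those without it.

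Myc was counted at 48.7, 35.5 and 48.0 CPM in the unstimulated isotype libraries of mice 1, 2 and 3, and at 616, 711 and 744 CPM in the anti-CD3 isotype libraries. With anti-LAIR-1 it stood at 39.6, 49.4 and 45.0 CPM unstimulated and at 601, 604 and 516 CPM with anti-CD3. Every library with anti-CD3 was more than 10 times as high as every library without it. In log2 units the rise was 3.94 (SE 0.12, adjusted p = 6.6e-18) with isotype, or 15.3-fold, and 3.68 (SE 0.10, adjusted p = 5.9e-16) with anti-LAIR-1, or 12.8-fold. Ranked by size among genes that rose, Myc was number 90 of 8690 tested with isotype and number 87 of 9000 with anti-LAIR-1. Within mice, the log2 difference in the isotype arms was 3.65, 4.30 and 3.94.

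Max, the obligate partner of MYC and a partner of the repressors, changed little by comparison. It stood at 164, 171 and 147 CPM in unstimulated isotype cells and at 214, 225 and 216 CPM in anti-CD3 isotype cells. With anti-LAIR-1 the levels were 152, 139 and 186 CPM unstimulated and 205, 210 and 212 CPM with anti-CD3. The groups did not overlap in either arm, and the log2 fold changes were 0.40 (SE 0.10, adjusted p = 8.9e-04) and 0.39 (SE 0.10, adjusted p = 0.0013). These are 1.32-fold with isotype and 1.31-fold with anti-LAIR-1. Under upper quartile scaling, which moved the median of all genes to -0.24 on the log2 scale in the anti-LAIR-1 arm, the second of these was 0.18 and did not pass (adjusted p = 0.112).

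Among the repressive partners, Mxi1 and Mxd4 fell most. Mxi1, also known as MXD2, was at 31.1, 37.6 and 44.2 CPM in unstimulated isotype cells and at 6.05, 5.09 and 2.41 CPM in anti-CD3 isotype cells. With anti-LAIR-1 it was at 42.1, 36.4 and 42.3 CPM unstimulated and at 3.64, 10.5 and 9.75 CPM with anti-CD3. The groups were far apart in both arms, although the anti-CD3 values rest on 15 to 62 counts per library. The log2 fold changes were -3.16 (SE 0.27, adjusted p = 3.2e-10) and -2.40 (SE 0.24, adjusted p = 3.9e-08).

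Mxd4 went from 11.9, 8.57 and 14.6 CPM to 0.907, 1.27 and 0.965 CPM with isotype, where the last 3 values are 3, 6 and 6 counts. With anti-LAIR-1 it went from 11.4, 11.1 and 7.76 CPM to 1.48, 1.35 and 2.12 CPM, or 11, 8 and 10 counts. Every library with anti-CD3 was below every library without it, on few counts. The log2 fold changes were -3.45 (SE 0.41, adjusted p = 7.4e-08) with isotype, or 10.9-fold lower, and -2.63 (SE 0.33, adjusted p = 7.3e-07) with anti-LAIR-1. Mxd4 passed the filter on low counts through the unstimulated libraries alone, so in these 2 comparisons it had to differ, and its call adds nothing to the count.

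Mxd1, the founding member of the MXD family, was at 14.6, 20.4 and 23.2 CPM in unstimulated isotype cells and at 5.14, 10.4 and 7.72 CPM in anti-CD3 isotype cells. With anti-LAIR-1 it was at 18.8, 19.1 and 14.2 CPM unstimulated and at 6.61, 10.3 and 5.93 CPM with anti-CD3. Every library with anti-CD3 was below every library without it, and mouse 2 was the highest with anti-CD3 in both arms. The log2 fold changes were -1.30 (SE 0.27, adjusted p = 1.7e-04) and -1.19 (SE 0.23, adjusted p = 1.5e-04).

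Mnt, a MAX-binding repressor present in resting and dividing cells alike, stood at 25.2, 30.6 and 24.8 CPM without anti-CD3 and at 21.8, 21.8 and 25.4 CPM with it in the isotype arm, and these groups overlapped. The log2 fold change of -0.25 did not pass the test (SE 0.18, 95% interval -0.63 to 0.13, adjusted p = 0.222). In the anti-LAIR-1 arm it was at 30.2, 26.8 and 36.9 CPM unstimulated and at 23.6, 22.1 and 26.7 CPM with anti-CD3. That fall of 0.39 on the log2 scale passed (SE 0.15, adjusted p = 0.0299), and the highest library with anti-CD3 lay just under the lowest without it. It no longer passed without unstimulated anti-LAIR-1 mouse 3 (-0.24, adjusted p = 0.19) or without anti-CD3 anti-LAIR-1 mouse 1 (-0.36, adjusted p = 0.0842) or mouse 2 (-0.31, adjusted p = 0.126), and DESeq2 gave an adjusted p of 0.16. In the isotype arm, upper quartile scaling gave -0.43 (adjusted p = 0.0397).

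Mga, the T-box partner of MAX, rose from 33.1, 45.7 and 43.1 CPM to 53.2, 78.0 and 68.4 CPM with isotype, and the groups did not overlap. With anti-LAIR-1 it rose from 38.5, 39.8 and 33.2 CPM to 48.8, 53.4 and 44.5 CPM. The log2 fold changes were 0.70 (SE 0.16, adjusted p = 4.2e-04) and 0.39 (SE 0.13, adjusted p = 0.00927). The smaller of these did not pass under upper quartile scaling (0.19, adjusted p = 0.191) or with every library thinned to the smallest total (0.24, adjusted p = 0.21).

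Mlx, the MAX-like partner of the glucose-sensing factors, was at 49.0, 50.6 and 44.8 CPM in unstimulated isotype cells and at 91.0, 74.6 and 79.0 CPM in anti-CD3 isotype cells. With anti-LAIR-1 the levels were 58.8, 51.5 and 52.5 CPM unstimulated and 80.8, 94.3 and 90.5 CPM with anti-CD3. Libraries with anti-CD3 were above all libraries without it in both arms. The log2 fold changes of 0.71 (SE 0.13, adjusted p = 3.2e-05) and 0.70 (SE 0.11, adjusted p = 8.5e-06) differed by -0.04 (interaction, SE 0.16, adjusted p = 0.957).

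**Figure D2:**
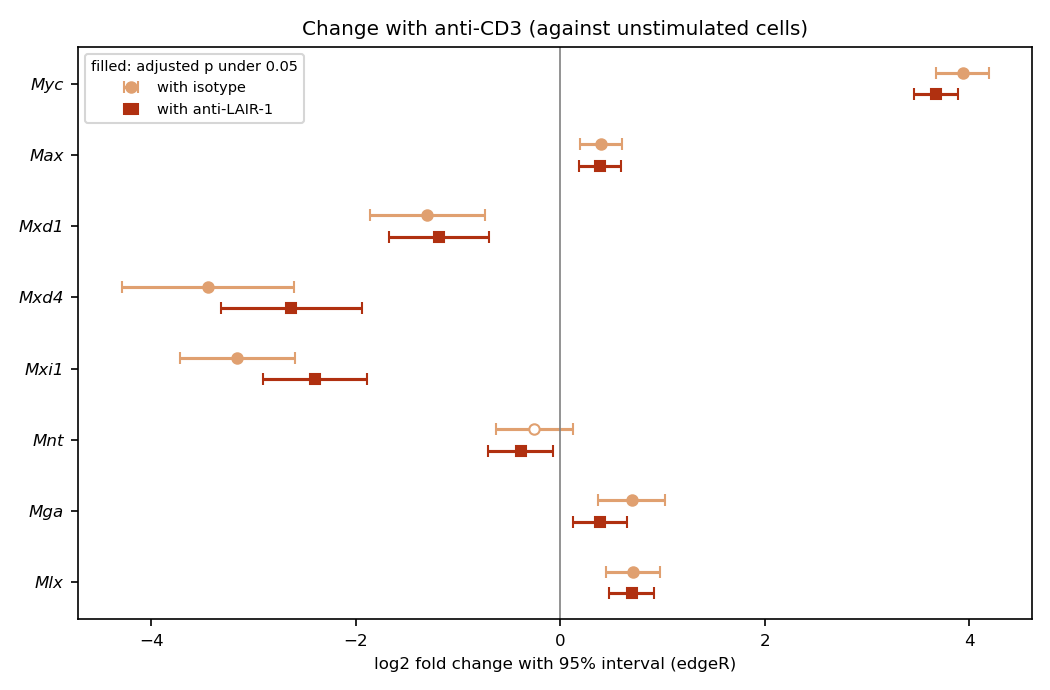
Log2 fold change with anti-CD3 against unstimulated cells (x axis) for each network gene (y axis), from edgeR with its 95% interval, with isotype (circles) and with anti-LAIR-1 (squares); filled symbols have an adjusted p under 0.05. Myc stands alone at 3.94 and 3.68, Mxd4 and Mxi1 are at -2.40 or below in both arms, and the isotype value of Mnt is the only open symbol.

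In cells that also received anti-CD3, few genes of this network were called for anti-LAIR-1. Of the 7 genes tested among 8800, Mga alone passed, lower with anti-LAIR-1, beside 5.76% of all genes tested (3.90% higher and 1.86% lower). At an unadjusted p under 0.05 in edgeR, 3 of the 7 were counted, beside 1658 of the 8800. These comparisons share the anti-CD3 libraries with those above, so they are not independent of them.

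Mga stood at 53.2, 78.0 and 68.4 CPM in anti-CD3 isotype cells and at 48.8, 53.4 and 44.5 CPM in anti-CD3 anti-LAIR-1 cells. It was lower with anti-LAIR-1 in each mouse, by 0.12, 0.54 and 0.61 on the log2 scale, though mouse 1 of the isotype group lay slightly below mouse 2 of the anti-LAIR-1 group. The log2 fold change was -0.46 (SE 0.13, edgeR adjusted p = 0.0382) and it was -0.47 by DESeq2 (adjusted p = 0.0361). The call held in 9 of 16 other settings, with adjusted p-values from 0.00208 to 0.196. It was lost without anti-CD3 isotype mouse 2 (-0.34, adjusted p = 0.196) or mouse 3 (-0.45, adjusted p = 0.0938), without anti-CD3 anti-LAIR-1 mouse 1 (-0.46, adjusted p = 0.0887), mouse 2 (-0.53, adjusted p = 0.0513) or mouse 3 (-0.41, adjusted p = 0.115). With the mouse as a block it passed in edgeR (adjusted p = 0.025) but not in DESeq2 (-0.45, adjusted p = 0.153), and it did not pass with thinned libraries (-0.42, adjusted p = 0.18).

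Myc was at 616, 711 and 744 CPM with isotype and at 601, 604 and 516 CPM with anti-LAIR-1 in the cells with anti-CD3. The groups did not overlap, yet the difference within mice ran from -0.04 in mouse 1 through -0.23 in mouse 2 to -0.53 in mouse 3. Its log2 fold change of -0.28 (SE 0.08, 95% interval -0.44 to -0.11) missed the threshold in edgeR (adjusted p = 0.0519). It passed in 5 of 16 other settings, among them DESeq2 (adjusted p = 0.0197) and the fit without anti-CD3 isotype mouse 1 (-0.35, adjusted p = 0.024). Over all 16 the value stayed between -0.35 and -0.21, with adjusted p-values from 0.00599 to 0.184.

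Mxi1 was the member with the widest spread here. In cells with anti-CD3 it was at 6.05, 5.09 and 2.41 CPM with isotype and at 3.64, 10.5 and 9.75 CPM with anti-LAIR-1, so mouse 1 went down and mice 2 and 3 went up. The log2 fold change of 0.85 (SE 0.39, 95% interval 0.02 to 1.68) did not pass (adjusted p = 0.252). Without anti-CD3 anti-LAIR-1 mouse 1 it was 1.24 and passed (adjusted p = 0.0383). Mxd4 was under the filter on low counts in this comparison and was not tested, and its levels were 0.907, 1.27 and 0.965 CPM with isotype against 1.48, 1.35 and 2.12 CPM with anti-LAIR-1.

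The other 4 genes gave differences near 0 in the cells with anti-CD3. The intervals still allowed some change, from -0.22 to 0.08 for Max (adjusted p = 0.671), from -0.64 to 0.53 for Mxd1 (adjusted p = 0.947), from -0.26 to 0.35 for Mnt (adjusted p = 0.906) and from -0.09 to 0.33 for Mlx (adjusted p = 0.59). The interval of Mxd1, counted at 17 to 61 reads per library, was the widest of these.

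In unstimulated cells none of the 8 genes passed with anti-LAIR-1, beside 0.00% of 8770 genes tested in edgeR. At an unadjusted p under 0.05, 384 of these genes but 0 of the 8 were counted, and DESeq2 called 0 genes. The log2 fold changes of the 8 lay between -0.20 for Mxd4 and 0.22 for Mnt, and every adjusted p was 0.997. Myc was at 48.7, 35.5 and 48.0 CPM with isotype and at 39.6, 49.4 and 45.0 CPM with anti-LAIR-1, a difference of 0.02 with a 95% interval of -0.31 to 0.34. Its groups overlapped and the mice went in different directions.

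**Figure D3:**
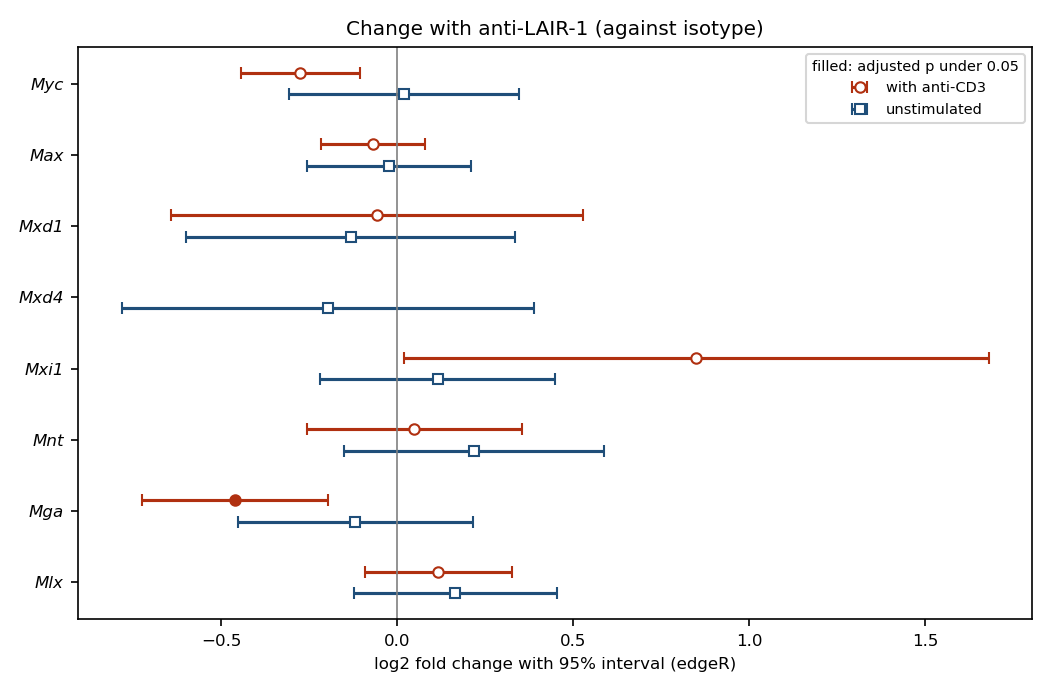
Log2 fold change with anti-LAIR-1 against isotype (x axis) for each network gene (y axis), from edgeR with its 95% interval, in cells with anti-CD3 (circles) and in unstimulated cells (squares); filled symbols have an adjusted p under 0.05, and Mxd4 was not tested with anti-CD3. Mga at -0.46 with anti-CD3 is the only filled symbol, the interval of Myc with anti-CD3 runs from -0.44 to -0.11, and Mxi1 with anti-CD3 has the widest interval.

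Whether anti-LAIR-1 altered the response to anti-CD3 was tested as an interaction term fitted to the 12 libraries together. None of the 8 genes passed among the 9223 tested in edgeR, beside 2.07% of all genes (1.82% higher and 0.249% lower). None had an unadjusted p under 0.05, where 1124 of the 9223 did, and none was called by DESeq2. The interaction was -0.29 for Myc (SE 0.17, 95% interval -0.63 to 0.05, adjusted p = 0.529), -0.34 for Mga (SE 0.21, adjusted p = 0.567), 0.74 for Mxi1 (SE 0.41, adjusted p = 0.506) and 0.80 for Mxd4 (SE 0.56, adjusted p = 0.631). For Mxd4, no library with anti-CD3 reached the filter's cutoff, and with libraries thinned to the smallest total its interaction was -0.61 (adjusted p = 0.878). For Max, Mxd1, Mnt and Mlx it lay between -0.16 and 0.08. The difference in Mga between its 2 responses to anti-CD3 was therefore not shown, and the same holds for the call of Mnt in the anti-LAIR-1 arm alone.

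Beyond the 8 genes, a list of 8 further network genes held the remaining relatives, partners and direct readouts. The MYC paralogue Mycn, the repressor Mxd3 and the glucose-sensing partner Mlxipl had 0 to 4 counts in every library and were under the filter. Mycl had no entry. The other 4, Mlxip, Zbtb17, Txnip and Arrdc4, were tested, and Txnip moved most.

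Txnip encodes an inhibitor of glucose uptake and is the best known target of MLX with MLXIP. It stood at 550, 654 and 597 CPM in unstimulated isotype cells and fell to 58.0, 52.1 and 48.3 CPM with anti-CD3. With anti-LAIR-1 it was at 648, 761 and 565 CPM unstimulated and at 86.4, 98.7 and 97.3 CPM with anti-CD3. Every anti-CD3 anti-LAIR-1 library was thus above every anti-CD3 isotype library, while the unstimulated groups overlapped. The log2 fold change with anti-CD3 was -3.55 (SE 0.11, adjusted p = 3.7e-18) with isotype and -2.81 (SE 0.10, adjusted p = 1.6e-14) with anti-LAIR-1. In cells with anti-CD3, anti-LAIR-1 raised it by 0.83 (SE 0.10, adjusted p = 7.0e-05), higher in 3 of 3 mice, against 0.13 (SE 0.10, adjusted p = 0.997) in unstimulated cells. The interaction itself passed, at 0.71 (SE 0.15, edgeR adjusted p = 0.00913).

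The second readout of MLX, the arrestin-like Arrdc4, was at 7.61, 6.53 and 5.93 CPM in unstimulated isotype cells and at 1.81, 5.09 and 4.02 CPM in anti-CD3 isotype cells. Its fall was -0.87 (SE 0.38, adjusted p = 0.0449) with isotype, and -1.32 (SE 0.28, adjusted p = 3.3e-04) with anti-LAIR-1. The call in the isotype arm held in 6 of 15 other settings. It was lost with the mouse as a block (adjusted p = 0.0503), and leaving out any single library except anti-CD3 isotype mouse 2 took the adjusted p to between 0.0526 and 0.178. Unlike Txnip, it was not called for anti-LAIR-1 in cells with anti-CD3 (-0.15, 95% interval -0.90 to 0.59, adjusted p = 0.87). Mlxip, which encodes the MLX partner MondoA, rose by 0.52 with anti-CD3 in the isotype arm (SE 0.20, adjusted p = 0.0252) and gave 0.09 in the anti-LAIR-1 arm (95% interval -0.24 to 0.42, adjusted p = 0.629). The rise held in 9 of 16 other settings and was lost without unstimulated isotype mouse 1 (0.36, adjusted p = 0.154) or mouse 3 (0.49, adjusted p = 0.0559) and without anti-CD3 isotype mouse 2 (0.39, adjusted p = 0.123). It was also lost in DESeq2 without and with the mouse as a block (adjusted p = 0.0502 and 0.0889). The same held under upper quartile scaling (adjusted p = 0.13) and with thinned libraries (adjusted p = 0.137). Zbtb17, the MYC partner MIZ1 that is tied to repression, gave 0.19 (adjusted p = 0.443) in the isotype arm and 0.58 (SE 0.19, adjusted p = 0.0108) in the anti-LAIR-1 arm, where mouse 2 went down. The latter was lost without unstimulated anti-LAIR-1 mouse 1 (0.49, adjusted p = 0.0508) or mouse 3 (0.42, adjusted p = 0.0695). It was also lost under upper quartile scaling (0.37, adjusted p = 0.0819) and with thinned libraries (0.30, adjusted p = 0.242). The interaction of neither Mlxip (adjusted p = 0.515) nor Zbtb17 (adjusted p = 0.724) passed.

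**Figure D4:**
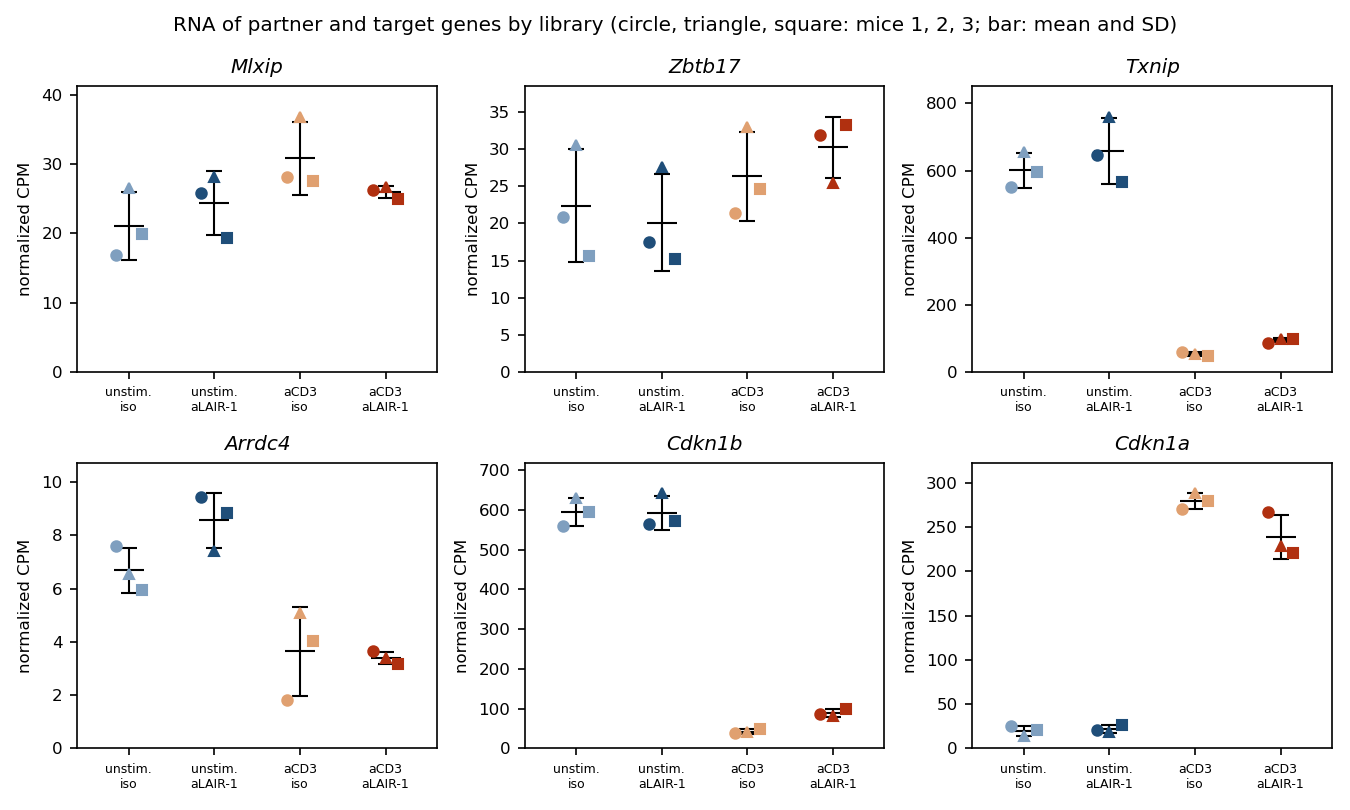
Normalized CPM (y axes, linear from 0) of Mlxip, Zbtb17, Txnip, Arrdc4, Cdkn1b and Cdkn1a in the 4 groups (x axes); symbols are libraries of mice 1, 2 and 3, and bars are the mean and SD of 3 libraries. Txnip falls from 550 to 761 CPM without anti-CD3 to 48.3 to 98.7 CPM with it, and within the anti-CD3 groups both Txnip and Cdkn1b are higher with anti-LAIR-1 in each mouse.

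The machinery around MYC moved in both directions with anti-CD3. Of 16 genes for turnover and phosphorylation of MYC, 13 were tested, and 6 rose and 3 fell with isotype, while 5 rose and 5 fell with anti-LAIR-1. Among the largest rises were those of the kinase Pim3 (2.49 with isotype and 1.99 with anti-LAIR-1, log2) and the nucleolar deubiquitinase Usp36 (1.88 and 1.35). The largest falls were in the ubiquitin ligase subunit Fbxo32 (-3.85 and -2.35), the deubiquitinase Usp28 (-3.31 and -2.65) and the kinase Gsk3b (-1.07 and -0.81), which marks MYC for degradation. With isotype, Fbxo32 passed the filter through the unstimulated libraries alone and had to differ. The list's median log2 fold change was 0.29 with isotype and -0.05 with anti-LAIR-1, beside -0.03 and -0.04 for all genes.

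Of 13 coactivators of MYC, 7 rose and 3 fell with isotype, and 8 rose and 5 fell with anti-LAIR-1. The helicases Ruvbl1 (2.51 and 2.61) and Ruvbl2 (2.00 and 2.16) and the scaffold Wdr5 (1.56 and 1.25) rose most, whereas the acetyltransferases Ep300 (-1.19 with isotype) and Crebbp (-0.58 and -1.20) and the adaptor Trrap (-0.51 and -0.53) fell. The fall of Crebbp in the isotype arm did not pass in DESeq2 (adjusted p = 0.0659), and that of Trrap there did not pass in DESeq2 with the mouse as a block (adjusted p = 0.0647). Crebbp was also lost without unstimulated isotype mouse 2 (adjusted p = 0.0529) or anti-CD3 isotype mouse 3 (adjusted p = 0.0904). Of 14 corepressors used by the MXD proteins and MNT, 3 rose and 4 fell with isotype and 5 rose and 5 fell with anti-LAIR-1. The SIN3 subunits Sap30 (1.53 and 1.69) and Rbbp7 (1.01 and 1.06) and the deacetylase Hdac2 (1.17 and 1.15) rose, and the SIN3-associated Arid4a (-1.75 and -2.06) and Arid4b (-1.09 and -1.11) fell. The SIN3 scaffold Sin3a was among the 3 largest falls with isotype (-0.89) and the nuclear corepressor Ncor1 with anti-LAIR-1 (-0.68).

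Of 14 partners in the MGA complex, 13 were tested, and 8 rose and 3 fell with isotype, while 7 rose and 4 fell with anti-LAIR-1. The repressor E2f6 (1.69 and 1.36) led the rises with Wdr5, which is in this list as well, and the methyl-lysine reader L3mbtl2 rose with isotype (1.21). The E2F partner Tfdp2 (-2.20 and -1.90), the heterochromatin protein Cbx3 (-0.76 and -0.55) and the ubiquitin ligase Rnf2 (-0.40 and -0.38) fell. Rnf2 did not pass in DESeq2 in either arm (adjusted p = 0.0775 and 0.0949). It was also lost without anti-CD3 isotype mouse 2 (adjusted p = 0.062), and in the other arm without unstimulated anti-LAIR-1 mouse 1 or 2 or anti-CD3 anti-LAIR-1 mouse 1 or 3 (adjusted p = 0.0678 to 0.0999). These counts have to be read against the 71.3% and 72.7% of all genes that passed, and they ranged from 7 of 14 corepressors with isotype to 13 of 13 coactivators with anti-LAIR-1.

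With anti-LAIR-1 in cells with anti-CD3, 4 of these genes passed, where 5.76% of all genes did. They were 3 of 15 turnover genes and 1 of 14 genes of the MGA complex. Among the turnover genes, Fbxo32 rose (1.44, SE 0.39, adjusted p = 0.0367) and the MYC-stabilizing kinase Pim1 (-0.87, SE 0.16, adjusted p = 0.00333) and Usp36 (-0.37, SE 0.10, adjusted p = 0.0327) fell. Pim1 did not pass in DESeq2 (adjusted p = 0.0662). Fbxo32 was lost whichever of the 6 libraries was left out (1.24 to 1.62, adjusted p = 0.0519 to 0.157), and Usp36 was lost without anti-CD3 isotype mouse 1 (-0.27, adjusted p = 0.145) or anti-CD3 anti-LAIR-1 mouse 2 (-0.36, adjusted p = 0.113) or mouse 3 (-0.36, adjusted p = 0.0831). With the mouse as a block in DESeq2, Pim1 (adjusted p = 0.287) and Usp36 (adjusted p = 0.0887) were lost. In the MGA complex the heterochromatin protein Cbx1 fell (-0.78, SE 0.22, adjusted p = 0.0421). That call was lost with the mouse as a block (adjusted p = 0.0594), in DESeq2 (adjusted p = 0.127) and whichever of the 6 libraries was left out (adjusted p = 0.0751 to 0.132). None of the 13 coactivators or 14 corepressors passed in edgeR or DESeq2. At an unadjusted p under 0.05 in edgeR, 1 and 0 of them were counted, beside 1658 of all 8800 genes.

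The targets of MYC followed the direction of Myc with anti-CD3. Of 40 textbook targets that MYC activates, 39 were tested and all 39 rose, with isotype and with anti-LAIR-1 alike, where 35.3% and 36.4% of all genes tested rose. The list was drawn from general knowledge of MYC, but with earlier results of these data known. Its counts here and below are therefore a description of these genes and not independent support. Many of its genes are also induced by other signals in activated T cells, whose part was not tested. The median log2 fold change was 2.36 in both arms, and the range was 0.93 to 5.18 with isotype and 1.32 to 4.77 with anti-LAIR-1. Of the 31 targets with a promoter in RefSeq, 11 held CACGTG, or 35.5%, which is a description of these windows and not of binding.

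Hexokinase Hk2, the entry enzyme of glycolysis, was at 2.98, 1.63 and 0.539 CPM in unstimulated isotype cells and at 68.3, 82.7 and 64.8 CPM in anti-CD3 isotype cells. The lower values rest on 9, 4 and 1 counts. Hk2 passed the filter in this arm through the anti-CD3 libraries alone and had to differ, so its call adds nothing to the count of targets that rose. Its log2 fold change of 5.18 (SE 0.27) is the least precise of the 3 largest. The transferrin receptor Tfrc, which imports iron, went from 23.5, 19.2 and 28.0 CPM to 364, 389 and 381 CPM. Spermidine synthase Srm went from 99.0, 75.5 and 121 CPM to 1289, 1441 and 1429 CPM. Their log2 fold changes were 3.98 (SE 0.13) for Tfrc and 3.79 (SE 0.12) for Srm, close to that of Myc.

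**Figure D5:**
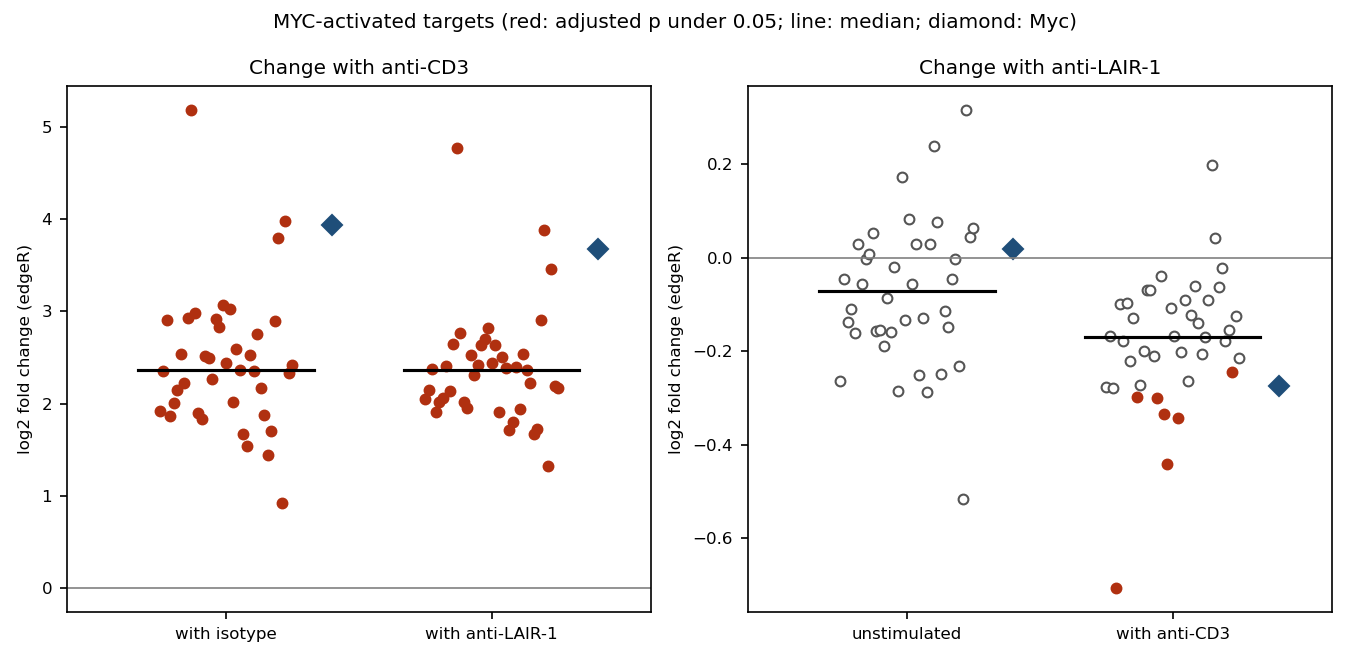
Log2 fold change (y axes) of the MYC-activated targets tested, with anti-CD3 in the isotype and anti-LAIR-1 arms (left) and with anti-LAIR-1 in unstimulated cells and in cells with anti-CD3 (right, a narrower scale); each circle is a gene, red circles have an adjusted p under 0.05, lines are medians and diamonds are Myc. All targets rise with anti-CD3 around a median of 2.36, and with anti-LAIR-1 the median is -0.17 in cells with anti-CD3 and -0.07 in unstimulated cells.

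In cells with anti-CD3, anti-LAIR-1 lowered 7 of the 40 targets and raised none, beside 1.86% of all genes lower. The list's median was -0.17 and all genes' median was 0.00, and 38 of the 40 values were below 0, where 49.4% of all genes were. Within mice the median was -0.08, -0.19 and -0.23. The 3 largest falls were in the cyclin Ccnd2 (-0.71, SE 0.10, adjusted p = 4.9e-04) and in the ribosome assembly factors Nop16 (-0.44, SE 0.08, adjusted p = 0.00363) and Nop58 (-0.34, SE 0.08, adjusted p = 0.0109). Ccnd2 was at 925, 1195 and 970 CPM with isotype and at 666, 712 and 523 CPM with anti-LAIR-1, with no overlap. The number of targets that passed was 12 in DESeq2, 4 with libraries thinned to the smallest total, 3 without anti-CD3 isotype mouse 2 and 4 without anti-CD3 anti-LAIR-1 mouse 2. These counts have to be read against the calls over all genes, which were 507 in the main fit and 422 in DESeq2. Those with thinned libraries and with a library left out were fewer as well and are given in the last section.

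In unstimulated cells none of 38 targets passed with anti-LAIR-1 in edgeR or in DESeq2, with a median of -0.07. At an unadjusted p under 0.05 in edgeR, 3 were counted, beside 384 of all 8770 genes tested. The interaction passed for none of 39 in edgeR, with a lowest adjusted p of 0.0656. At an unadjusted p under 0.05, 4 were counted, beside 1124 of all 9223 genes tested. It passed for 1 in DESeq2, with the mouse as a block in edgeR, without a filter, or without anti-CD3 anti-LAIR-1 mouse 2. The fall of the targets with anti-LAIR-1 was thus not shown to be larger with anti-CD3 than without it.

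Of 12 genes that MYC is known to repress, 9 were tested with anti-CD3, and in both arms 6 fell and 3 rose, beside 71.3% (36.1% lower) and 72.7% (36.3% lower) of all genes tested. The cell cycle inhibitor Cdkn1b (p27) fell furthest (-3.84, SE 0.11, adjusted p = 1.9e-18 with isotype, and -2.75, SE 0.09, adjusted p = 4.8e-15 with anti-LAIR-1), and the differentiation gene Ndrg2 (-2.83 and -2.57) and the inhibitor Cdkn2c (-2.77 and -1.55) fell as well. Cdkn2c in both arms and Ndrg2 with isotype passed the filter through the unstimulated libraries alone and had to differ, so they add nothing to these counts. Against the direction of the list, the inhibitor Cdkn1a (p21) rose from 25.2, 13.9 and 20.5 CPM to 271, 288 and 279 CPM with isotype, a log2 fold change of 3.76 (SE 0.15), and rose by 3.43 with anti-LAIR-1. The stress gene Gadd45b (1.80 and 1.24) and Ndrg1 (0.65 and 0.76) rose too.

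With anti-LAIR-1 in cells with anti-CD3, 8 genes of this list were tested and Cdkn1b alone passed, beside 5.76% of all genes. The list's median was -0.03, with 4 values above 0 and 4 below. At an unadjusted p under 0.05 in edgeR, 5 of the 8 were counted, beside 1658 of all 8800 genes tested. Cdkn1b was at 37.8, 39.8 and 49.1 CPM with isotype and at 86.6, 81.4 and 98.9 CPM with anti-LAIR-1 in these cells, and the groups were well apart. That is a rise of 1.05 in log2 units (SE 0.11, adjusted p = 3.5e-05), or 2.07-fold, and it was higher in 3 of 3 mice. In unstimulated cells the levels were 561, 631 and 596 CPM with isotype and 564, 642 and 573 CPM with anti-LAIR-1, a difference of -0.01 with a 95% interval of -0.18 to 0.17. The interaction passed at 1.06 (SE 0.14, edgeR adjusted p = 5.1e-05). Beside these results, the naive markers fell with anti-CD3 for 10 of 10 in the isotype arm and 9 of 10 in the anti-LAIR-1 arm. The shares of all genes that fell were 36.1% and 36.3%. In cells with anti-CD3, 7 of the 10 were higher with anti-LAIR-1, beside 3.90% of all genes. Their summed levels were 2266 to 2608 CPM against 1783 to 1914 CPM, and the part of this in Cdkn1b, Txnip and the targets was not tested.

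The genes whose levels over the 12 libraries were most like those of each network gene were listed by Pearson's r in log2 CPM among 9223 genes. This is a description over 12 points that fall into a group with and a group without anti-CD3, which sets most of each correlation. For Myc they were D19Bwg1357e, Rsl1d1 and Nsun2 (all 0.998), for Mxd4 they included Atp6v1d (0.991) and Tec (0.991), and for Mxi1 Inadl, Rmnd5a and 2900056M20Rik (0.979 to 0.980). Max had Ppp2r3c, Arl5b and Ndrg1 (0.967 to 0.976), Mlx had Ube2v1, Exosc5 and Ptplad1 (0.973 to 0.976), and Mxd1 had 5830417I10Rik, Casp8 and Sgk3 (0.961 each). The values were lower for Mga, with Yipf5, Trim44 and Rif1 (0.931 to 0.940), and for Mnt, with Cenph (0.890) and Gins3 (0.887) among them. Between members, Myc ran opposite to Mxd4 (-0.97), Mxi1 (-0.95) and Mxd1 (-0.88) and along with Mlx (0.93), Max (0.89) and Mga (0.78).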

How the data were processed

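The deposited file holds raw read counts per gene symbol for 12 libraries. The authors barcoded samples by CEL-seq, aligned read 2 to the mouse mm10 transcriptome (BWA MEM), dropped reads that matched several places equally well, and deposited the counts without normalization. Collapsing by molecular identifier is not given in the sources used here, so limits drawn from counts cover counting error only. Totals were 1781218 to 7725545 counts.

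Groups were compared with edgeR 4.0.16 in R 4.3.3 (TMM, filterByExpr, quasi-likelihood F-test, two-sided, Benjamini-Hochberg over all genes tested, threshold 0.05), each comparison on its own 6 libraries and the interaction on all 12. Levels are normalized CPM. Log2 CPM for likeness and within-mouse differences used a prior count of 2. The mouse numbers pair the libraries, since cells were sorted per mouse. Deviations of same-mouse libraries from their group means correlated with a mean r of 0.0489, and other pairs with -0.0245. Subtracting the group means largely fixes the second value from the first, so it is no independent reference. Replicate libraries differed by 3.61 to 5.34 times the sampling variance. The members and lists were chosen with earlier results of these data known. Named were the 8 members, the network list, the 3 highest and 3 lowest genes that passed in each other list and comparison, and the 3 genes most like each member, apart from a few that are not reported here. Arithmetic was tested on simulated data.

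Alternatives were DESeq2 1.42.0 with and without the mouse as a block, edgeR with the block, DESeq2 size factors, upper quartile, no filter, at least 10 counts in every library, all 12 libraries in each fit and each library left out. Thinning to the smallest library and leaving out mitochondrially encoded genes and Rn45s were chosen after seeing the data.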

Additional observations from a re-analysis of the deposited data

Results flagged for a closer look

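Among the list genes named here, 5 passed the test of the interaction over 12 libraries in edgeR, where 2.07% of all 9223 genes tested passed. Genes were named because they passed this or another comparison, so this count is a description and cannot be set against that share. Of the 10 naive markers, 6 passed it, and not all of them are named here. The interaction is the difference between cells with anti-CD3 and unstimulated cells in the change with anti-LAIR-1. In log2 units it was 1.06 for Cdkn1b (adjusted p = 5.1e-05), 0.71 for Txnip (adjusted p = 0.00913), 1.17 for the interleukin-7 receptor chain Il7r (adjusted p = 0.01), and 0.64 for Lef1 (adjusted p = 0.00209) and 0.71 for Tcf7 (adjusted p = 0.0191), both transcription factors of naive T cells. All 5 fell with anti-CD3 in either arm, and the fall was smaller with anti-LAIR-1. The interactions of Cdkn1b and Txnip passed in all 21 alternatives run for them, and that of Lef1 was not repeated. Il7r passed in 19 of 21 and was lost without anti-CD3 isotype mouse 3 (1.09, adjusted p = 0.0618) and with thinned libraries (1.21, adjusted p = 0.115). Tcf7 passed in 16 of 21 and was lost with thinned libraries (adjusted p = 0.245) and without unstimulated anti-LAIR-1 mouse 3, anti-CD3 isotype mouse 1 or 3, or anti-CD3 anti-LAIR-1 mouse 3 (0.63 to 0.70, adjusted p = 0.0557 to 0.0747).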

How the results depend on the processing

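The anti-CD3 responses of Myc, Max, Mxd1, Mxd4, Mxi1, Mga and Mlx with isotype, and of Myc, Mxd1, Mxd4, Mxi1 and Mlx with anti-LAIR-1, passed in all alternatives in which they were fitted. With the mouse as a block, edgeR called 7, 8, 1, 0 and 0 network genes (anti-CD3 with isotype, anti-CD3 with anti-LAIR-1, anti-LAIR-1 with anti-CD3, anti-LAIR-1 unstimulated, interaction), and among the named genes the block in edgeR removed the calls of Arrdc4 and Cbx1 alone. In DESeq2 the block also removed those of Mga and Usp36 (anti-LAIR-1 with anti-CD3) and Trrap (anti-CD3 with isotype). For anti-LAIR-1 with anti-CD3, the 1 network gene called became 2 with DESeq2 size factors, in DESeq2, without a filter, or without mitochondrially encoded genes and Rn45s. It became 0 in DESeq2 with the block and with thinned libraries, and 0 to 2 with a library left out (0 without anti-CD3 isotype mouse 2 or 3 or anti-CD3 anti-LAIR-1 mouse 2 or 3). Over all genes, the 507 called there became 224 in DESeq2 with the block, 285 when thinned and 293 to 427 with a library left out. Anti-LAIR-1 in unstimulated cells gave 5 genes in place of 0 without a filter, and 0 to 1 with a library left out. The interaction gave 109 in place of 191 when thinned and 103 to 186 with a library left out.

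The values that changed sign were not called under any of these settings. With anti-CD3, the change with anti-LAIR-1 ran from -0.34 to 0.19 for Mxd1, from -0.0268 to 0.12 for Mnt and from -0.41 to 0.11 for Arrdc4 with a library left out, and thinning gave 0.17 for Mxd1 and -0.0662 for Mnt. In unstimulated cells it ran from -0.12 to 0.11 for Myc, from -0.155 to 0.0663 for Max, from -0.32 to 0.00228 for Mxd1 and from -0.0143 to 0.23 for Mxi1, and thinning gave -0.0461 for Myc, 0.0142 for Max and 0.0485 for Mxd4. The interaction ran from -0.13 to 0.0867 for Max, from -0.20 to 0.32 for Mxd1 and from -0.11 to 0.0333 for Mlx, and thinning gave -0.61 for Mxd4. Mlxip with anti-CD3 and anti-LAIR-1 ran from -0.0510 to 0.20, and was -0.12 under upper quartile scaling. The causes were not tested. Among the members, counts with anti-CD3 were lowest for Mxd4, Mxi1 and Mxd1, with as few as 3, 15 and 17 in a library. The libraries with anti-CD3 were the deeper groups by median total, and the part of depth in these low counts was not tested.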
